A study of Homo sapiens with 6 samples.

Results

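The open chromatin of human chromosome 6 was examined in 6 ATAC-seq libraries of K562, a long-established leukaemia cell line of human origin. Its members were 3643 of the 48967 open intervals deposited. ATAC-seq uses a transposase to insert sequencing adapters into accessible DNA, so that piles of fragments mark open regions. They comprised every listed interval on chromosome 6, leaving out the histone and tRNA gene cluster between 25.7 and 29.0 Mb of the hg19 build. The chromosome was chosen by the number of intervals it held for its length in these same lists, so that excess is described here without a test. The 6 libraries came from 3 modified K562 lines. One carried the vector alone, one overexpressed wild-type SLFN11 and one overexpressed E669Q-substituted SLFN11. Cells of each line were treated with DMSO, or with 1000 nM camptothecin (CPT) for 4 h, and each of these 6 groups had 1 library. The sources used here do not say whether a line was 1 clone or a pool, and no difference between groups has a replicate check.

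SLFN11, of the Schlafen family, is recruited to replication forks under stress and stops them, and E669Q alters its ATPase domain. CPT traps topoisomerase I on DNA, which stalls replication. Chromosome 6 carries the major histocompatibility complex (MHC) on its short arm, a gene-dense stretch with the HLA antigen-presentation genes and many genes of other function. K562 cells are known for very low HLA class I on their surface. Gene-dense DNA is usually rich in open promoters, whereas the DNA flanking a centromere is usually closed. No sequence or gene name of an open region is given, because no hg19 genome or annotation was used here.

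For the vector line the DMSO list held 462 members and the CPT list 490. The wild-type SLFN11 lists held 859 (DMSO) and 412 (CPT), and the E669Q lists 558 (DMSO) and 862 (CPT). Depth differed between them. Relative to vector with DMSO, the depth recovered from the deposited values was 1.09 in vector with CPT, 1.72 and 1.09 in wild-type SLFN11 with DMSO and CPT, and 1.33 and 2.22 in E669Q with DMSO and CPT. The libraries with the most members were therefore the deepest. The part of depth in the differences between libraries was not tested, but wild-type SLFN11 with CPT and vector with CPT had the same relative depth to 3 digits. The ranges in parentheses after shares and ratios are 95% confidence intervals. They reflect counting error alone, with open intervals taken as independent of each other.

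Chromosome 6 held more open intervals than its length would give in all 6 libraries. Its members made up 8.81% of the list in vector with DMSO, 8.44% in vector with CPT, 7.37% and 7.41% in wild-type SLFN11 with DMSO and CPT, and 6.67% and 6.99% in E669Q with DMSO and CPT. The same stretch is 5.42% of the covered chromosome length, X and Y included. In intervals per Mb, the chromosome stood at 1.69 times the other chromosomes in vector with DMSO (1.54 to 1.86) and at 1.62 times in vector with CPT (1.47 to 1.77). The ratio was 1.40 in both wild-type SLFN11 libraries, 1.25 in E669Q with DMSO (1.15 to 1.37) and 1.32 in E669Q with CPT. The other chromosomes include X and Y. Against the other numbered chromosomes (autosomes) alone, each ratio was lower, from 1.20 in E669Q with DMSO to 1.62 in vector with DMSO. The excess was thus seen in each library and was highest in the vector line.

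Among 24 chromosomes, chromosome 6 had the highest density of intervals in vector with DMSO and ranked 2 in vector with CPT. Its rank was 3 in the wild-type SLFN11 DMSO library and the E669Q CPT library, and 4 in the remaining libraries. By protein-coding genes per Mb, counted in RefSeq and divided by the covered length, it ranked 9, with 6.14. Chromosome 19, the most gene-dense by this count, had more open intervals per Mb than chromosome 6 in the 4 SLFN11-line libraries, and chromosome 1 had more in 5 of the 6 libraries. Of the chromosomes nearest in number, chromosome 6 had 1.24 to 1.45 times the density of chromosome 5. Chromosome 7 was close, with chromosome 6 at 0.994 to 1.12 times its density. High density is therefore shared with chromosomes 1 and 7.

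**Figure D1:**
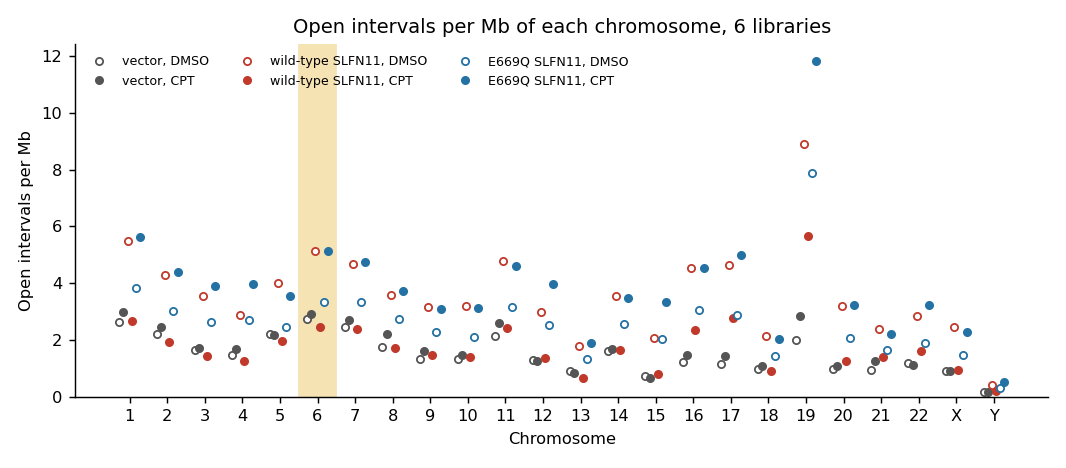
Open intervals per Mb (vertical axis) for each of 24 chromosomes (horizontal axis), 1 point per library, with open symbols for DMSO and filled symbols for CPT; chromosome 6, shaded, is drawn without the left-out cluster. Its points run from 2.46 to 5.14 per Mb and rank between 1 and 4 of 24 in each library.

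The median member was also somewhat stronger than the median interval elsewhere. The summit pileup is the number of fragments stacked at the highest point. Fold enrichment is the authors' ratio of this pileup to the local background, with the same constant added to both. Its median over the members was 6.28 in vector with DMSO against 6.02 on the other chromosomes, 6.39 against 6.12 in vector with CPT, and 6.16 against 5.88 in wild-type SLFN11 with CPT. It was 6.33 against 6.16 in the DMSO library of the wild-type SLFN11 line. In the E669Q line it was 6.24 against 6.05 with DMSO and 6.14 against 6.05 with CPT. Among the segments of the chromosome, long arm members had the highest median fold in each library, from 6.32 to 6.63. Median widths of members ran from 266 to 305 bp, against 231 to 281 bp elsewhere.

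When each list was divided into 5 equal parts by the authors' −log10 p-value, chromosome 6 held a larger share of the strongest part than of the weakest in each library. In vector with DMSO it held 11% of the strongest part (9.13% to 13.0%) and 6.67% of the weakest. In wild-type SLFN11 with CPT the corresponding shares were 8.45% and 5.13%, with the highest share, 8.99%, in the second part. In E669Q with DMSO they were 8.25% and 5.56%. E669Q with CPT had the flattest profile, with 7.70% and 6.53%. In each list most members of the strongest part lay on the long arm, but the short arm is 33.2% of the length. In the vector line the long arm had 79 of 115 with DMSO and 83 of 121 with CPT. In wild-type SLFN11 it had 143 of 232 and 59 of 94, and in E669Q 83 of 138 and 125 of 190. It also held most of the weakest part, with 41 of 70 in vector with DMSO and 91 of 161 in E669Q with CPT. These shares were not tested against length. None of the MHC members was in the strongest part of either vector list, out of 17 with DMSO and 29 with CPT. In wild-type SLFN11 the strongest part held 5 of 46 with DMSO and 6 of 29 with CPT. In E669Q it held 10 of 42 with DMSO and 9 of 55 with CPT. These counts are small and their differences were not tested.

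The local background around called intervals was higher on chromosome 6 too. It is counted by the peak caller from fragments near the summit, and relative to the other chromosomes its median over members was 1.19 in both vector libraries, 1.25 and 1.14 in wild-type SLFN11 with DMSO and CPT, and 1.18 and 1.11 in E669Q with DMSO and CPT. More DNA copies and more accessible surroundings cannot be told apart in these values. The part of the background in the excess of intervals was not tested.

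The short arm was denser than the long arm in each library. The short arm, taken as everything below 59 Mb, held 189 and 208 members in vector with DMSO and CPT, 386 and 185 in wild-type SLFN11, and 240 and 361 in E669Q. That was 40.9% to 44.9% of members on 33.2% of the length. The density ratio of short to long arm was 1.39 in vector with DMSO (1.15 to 1.68), 1.48 in vector with CPT, 1.64 in both wild-type SLFN11 libraries, 1.52 in E669Q with DMSO and 1.45 in E669Q with CPT (1.26 to 1.66). All 6 counting intervals lay above 1. Without the MHC the ratio was 1.34 to 1.57, so most of the excess of the short arm lay outside the MHC.

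The arms differed in strength as well as in number. In vector with DMSO, 61.2% of long arm intervals had a −log10 q-value of at least 5, against 47.7% on the short arm outside the MHC. In vector with CPT these shares were 64.5% and 49.7%. In the deepest library, E669Q with CPT, they were 68.5% and 59.8%. Counting these stronger intervals alone, the short to long arm ratio was 1.07 (0.819 to 1.39) in vector with DMSO and 1.10 (0.856 to 1.42) in vector with CPT, both with an interval that includes 1.

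Open intervals clustered along the chromosome. In 10 Mb bins of regions merged over the libraries, the bin from 30 to 40 Mb, which holds most of the MHC and the DNA just above it, had the most, with 140 of 1215. Its intervals numbered 35 and 47 in vector with DMSO and CPT, 105 and 53 in wild-type SLFN11, and 71 and 104 in E669Q. The bin from 60 to 70 Mb, just beyond the centromere on the long arm, had the fewest of the full-length bins, with 16 regions and 4 to 11 intervals per library. Bins at 0 to 10 and 10 to 20 Mb held 103 and 109 regions, and on the long arm those at 110 to 120, 130 to 140 and 150 to 160 Mb held 88 or 89. The longest stretch without a region, apart from the left-out cluster and its flanks, ran 3.52 Mb from 101417104 to 104937314, and another of 3.13 Mb spanned the centromere.

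**Figure D2:**
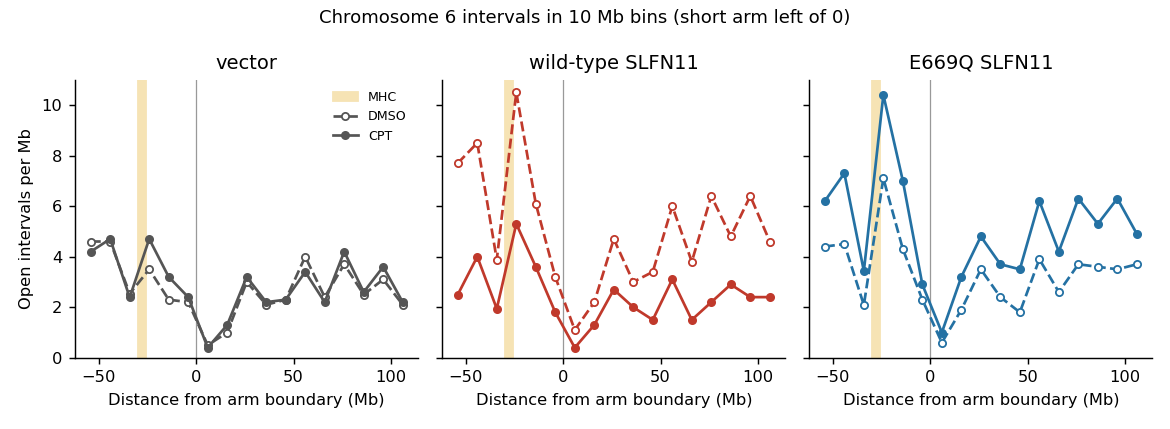
Open intervals per Mb (vertical axis) in 10 Mb bins along chromosome 6, by distance from the arm boundary in Mb (horizontal axis, short arm at negative values), 1 panel per line with dashed lines for DMSO and solid lines for CPT; the MHC is shaded, and the last bin, under 1 Mb long, is left out. The bin holding most of the MHC reaches 10.5 per Mb in wild-type SLFN11 with DMSO, and the bin beside the centromere stays at or below 1.1 in each library.

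The MHC, from 29.0 to 33.5 Mb, held few but closely spaced open intervals. They numbered 17 (DMSO) and 29 (CPT) in the vector line, 46 and 29 in the wild-type SLFN11 line, and 42 and 55 in the E669Q line. This was 3.68%, 5.92%, 5.36%, 7.04%, 7.53% and 6.38% of members in that order, on 2.68% of the length. Relative to the rest of chromosome 6, MHC density was 1.39 in vector with DMSO, with a counting interval that includes 1 (upper bound 2.24). It was 2.28 in vector with CPT, 2.05 and 2.75 in wild-type SLFN11 with DMSO and CPT, and 2.95 and 2.47 in E669Q with DMSO and CPT, with all of these intervals above 1. The median gap between neighbouring merged regions was 25.0 kb in the MHC, 44.2 kb on the short arm outside it and 55.6 kb on the long arm, against 55.7 kb elsewhere.

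Within the MHC the open regions were not spread evenly. Of 66 merged regions, 18 lay between 31.5 and 32.0 Mb, 14 between 33.0 and 33.5 Mb and 12 between 30.5 and 31.0 Mb. The first 1.0 Mb of the MHC held 4. In the densest of these bins, vector with DMSO had 3 intervals and vector with CPT 7, against 11 to 16 in the SLFN11-line libraries. In the bin from 33.0 to 33.5 Mb the counts were 5 and 8 in the vector line and 7 to 13 in the others.

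**Figure D3:**
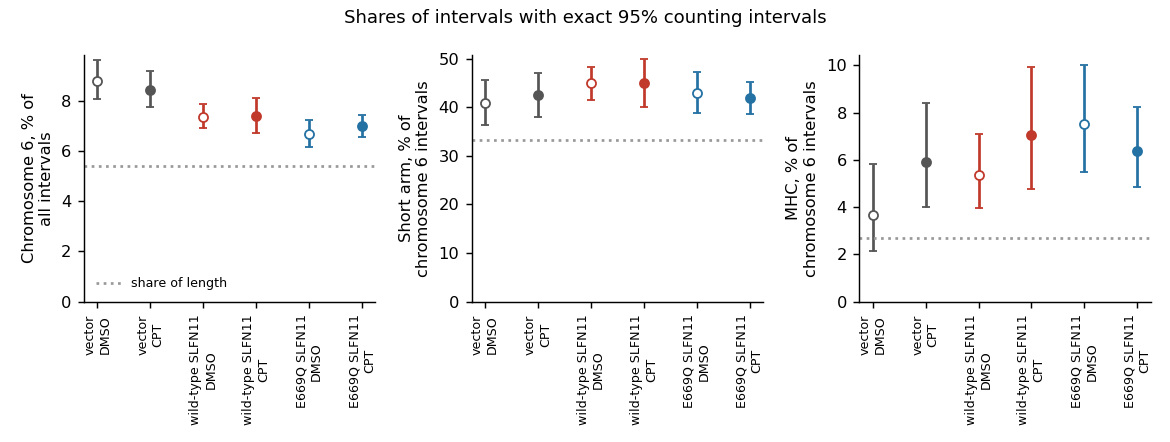
Share of all intervals on chromosome 6, of chromosome 6 intervals on the short arm, and of chromosome 6 intervals in the MHC (vertical axes, percent) for each library (horizontal axes), with exact 95% counting intervals and the share of length as a dotted line. All points lie above the share of length, and in the MHC panel the interval of vector with DMSO, 2.16% to 5.83%, includes it.

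Chromosome 6 took a smaller share of the list in the SLFN11 lines than in the vector line. With DMSO the difference from vector was −1.43 percentage points (−2.35 to −0.550, Newcombe) in the wild-type SLFN11 line and −2.14 (−3.09 to −1.21) in the E669Q line. With CPT it was −1.03 (−2.03 to −0.0378) and −1.45 (−2.31 to −0.623). All 4 comparisons use the vector libraries, so that they are not independent of each other. The vector lists were also among those by which the chromosome was chosen, so these differences are not independent of that choice. Between the SLFN11 lines, E669Q minus wild type was −0.702 with DMSO (−1.41 to 0.0190) and −0.420 with CPT (−1.26 to 0.386), both including 0. Both wild-type SLFN11 differences had intervals that include 0 in lists cut to an equal length of 5246, with −0.477 (−1.55 to 0.596) for DMSO and −0.934 (−1.97 to 0.103) for CPT. The CPT difference also included 0 with a −log10 q-value of at least 5 (−0.912, −2.42 to 0.616) and with a fold of at least 5 (−0.498, −1.65 to 0.663).

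Chromosome 6 was not alone in this. With DMSO, its share in wild-type SLFN11 was 0.837 times that in vector and its share in E669Q 0.757 times, each ranked 2 from the lowest of 24 chromosomes, after chromosome 5, at 0.807 and 0.689. With CPT the ratios were 0.878 and 0.828, which ranked 6 and 4 from the lowest. The median chromosome had ratios of 0.982 to 1.03 in the 4 comparisons, and chromosome 19 or chromosome 15 the highest.

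Interval numbers were then compared by segment. The wild-type SLFN11 list with DMSO was 2.22 times as long as that of vector, and its members were 1.86 times as many. The ratio was 1.73 on the long arm (1.49 to 2.02), 1.98 on the short arm outside the MHC (1.64 to 2.39) and 2.71 in the MHC (1.52 to 5.03). For E669Q with DMSO the list ratio was 1.59, with 1.16 on the long arm (0.988 to 1.37), 1.15 on the short arm outside the MHC (0.934 to 1.42) and 2.47 in the MHC (1.38 to 4.63). The long arm stood below the list beyond counting error in both lines, and the short arm outside the MHC in E669Q. The wide MHC intervals include the ratio of the list. With CPT the MHC ratio was 1.00 for wild-type SLFN11 over vector (0.577 to 1.73), against 0.958 for the list. For E669Q over vector it was 1.90 (1.19 to 3.08), below the 2.12 of the list. The MHC share of members was 3.85 points higher in E669Q than in vector with DMSO (0.983 to 6.69), whereas the other 3 differences from vector, of 0.462 to 1.68 points, had intervals that include 0.

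With DMSO, the bin with most of the MHC and the one above it gave high ratios, and the bin below did not. From vector to wild-type SLFN11 with DMSO, intervals numbered 35 and 105 at 30 to 40 Mb (3.00 times) and 23 and 61 at 40 to 50 Mb (2.65 times), with ratios from 1.43 up to that of the whole list in the other bins, and 1.53 at 20 to 30 Mb, which holds the start of the MHC. From vector to E669Q with DMSO the same bins gave 2.03 and 1.87 times and the bin at 70 to 80 Mb 1.90 times, while the bins at 0 to 10, 10 to 20 and 20 to 30 Mb gave 0.957, 0.978 and 0.824 times. Between the CPT libraries of vector and wild-type SLFN11, whose depth was alike, the ratio was 1.13 at 30 to 40 Mb and at 40 to 50 Mb it was 1.12. It was nearly as high at 140 to 150 Mb (1.12) and 160 to 170 Mb (1.09). It was 0.595 at 0 to 10 Mb, from 42 to 25 intervals, and 0.524 at 130 to 140 Mb, from 42 to 22. From vector to E669Q with CPT the ratio was 2.21 at 30 to 40 Mb and 2.19 at 40 to 50 Mb, against 2.12 for the list. Higher ratios were seen there at 60 to 70 Mb (2.50), 70 to 80 Mb (2.46) and 160 to 170 Mb (2.23). These bin counts are small and carry no test.

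The chromosome 6 share with CPT and with DMSO differed by less than counting error in each line. CPT minus DMSO was −0.367 points in the vector line (−1.42 to 0.679), 0.0346 in the wild-type SLFN11 line (−0.786 to 0.888) and 0.316 in the E669Q line (−0.390 to 1.01). Over the 3 lines the mean was −0.00535 points, higher with CPT in 2 of 3, with p = 1 in an exact two-sided sign-flip test whose smallest possible p is 0.25. For the short arm share of members the mean was 0.125 points (p = 1, exact), higher in 1 of 3 lines, and for the MHC share 0.925 points (p = 0.5, exact), higher in 2 of 3 lines. With Benjamini-Hochberg adjustment over these 3 tests each p was 1.

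The number of members followed the whole list after CPT. In wild-type SLFN11 the members with CPT were 0.480 times those with DMSO and the intervals on other chromosomes 0.478 times. In E669Q the ratios were 1.54 and 1.47, and in vector 1.06 and 1.11. Within chromosome 6, the wild-type SLFN11 ratio was 0.630 in the MHC (0.382 to 1.03), 0.480 on the long arm and 0.459 on the short arm outside the MHC. Among full 10 Mb bins it was lowest at 0 to 10 Mb, where 77 intervals with DMSO became 25 with CPT (0.325 times), and at 130 to 140 Mb, with 64 and 22 (0.344 times).

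Individual intervals on chromosome 6 were found again more often than intervals elsewhere, beyond counting error in 4 of 6 comparisons of CPT with DMSO. The median member was also stronger and wider (above), and the part of this in the overlaps was not tested. Gained means listed with CPT and overlapping nothing listed with DMSO in that line, and lost means the opposite. In the vector line 35.5% of chromosome 6 CPT intervals were gained, against 46.0% on other chromosomes and 45.1% of the whole list. This is a difference of −10.5 points from the other chromosomes (−14.8 to −5.92). Lost intervals made up 31.4% of DMSO members, against 40.1% elsewhere and 39.5% of the list (difference −8.76, −13.1 to −4.18). On the long arm 31.2% were gained and 28.6% lost, and in the MHC 55.2% (16 of 29) and 23.5% (4 of 17).

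In the wild-type SLFN11 line 9.47% of CPT members were gained, against 15.5% elsewhere and 15.1% of the list (difference −6.03, −8.70 to −2.68). Lost members made up 56.3% of the DMSO members, near the 59.7% elsewhere and 59.5% of the list, with a difference that includes 0 (−6.82 to 0.0508). In the MHC 41.3% were lost, 19 of 46, a difference of −18.4 points from other chromosomes (−31.4 to −4.01). In the E669Q line 45.0% of CPT members were gained, close to the 45.1% elsewhere and 45.2% of the list. Lost members made up 15.1% there, against 19.2% elsewhere and 19.0% of the list (difference −4.10, −6.97 to −0.781).

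**Figure D4:**
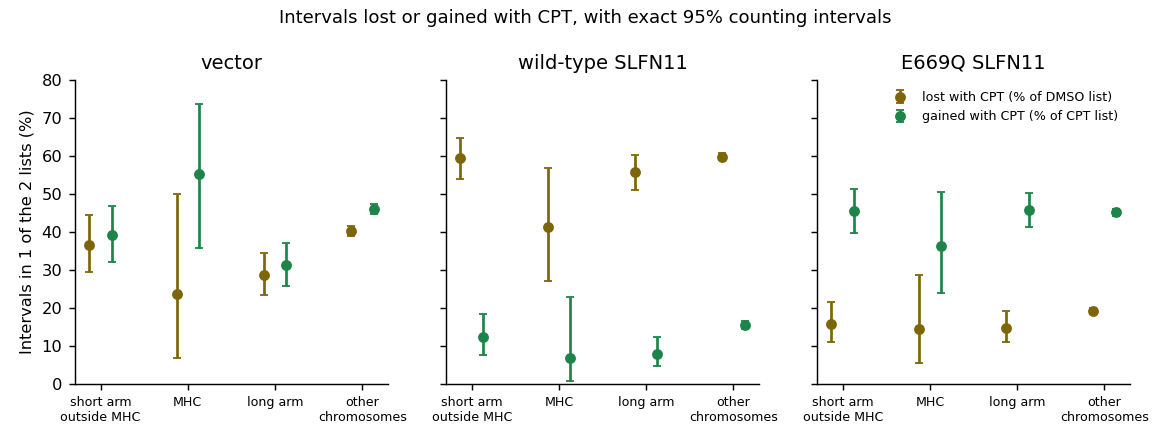
Share of intervals lost with CPT, as a percent of the DMSO list, and gained with CPT, as a percent of the CPT list (vertical axis), in segments of chromosome 6 and on the other chromosomes (horizontal axis), 1 panel per line, with exact 95% counting intervals. In the vector panel the long arm points, 28.6% and 31.2%, lie below those of the other chromosomes, 40.1% and 46.0%.

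Chromosome 6 intervals of the SLFN11-line lists were found more often in the vector lists than intervals elsewhere. The vector lists held the largest chromosome 6 shares, and the chromosome was chosen by its number of intervals in these lists. More of its intervals could thus be found there, so this is not a result separate from those shares. With DMSO, 52.7% of chromosome 6 intervals in the wild-type SLFN11 list had no overlap in the vector list, against 62.6% on other chromosomes and 62.0% of the list. For E669Q the shares were 42.8%, 56.9% and 56.1%. With CPT they were 30.8%, 43.3% and 42.5% in wild-type SLFN11, and 52.1%, 61.1% and 60.5% in E669Q. In the opposite direction, the vector list held 11.7% of members not found in wild-type SLFN11 with DMSO (15.4% of the list) and 30.7% not found in E669Q with DMSO (29.9% of the list). With CPT these were 41.4% (44.8% of the list) and 15.3% (15.7% of the list). Against other chromosomes, the vector-side difference lay beyond counting error only for wild-type SLFN11 with DMSO (−3.98 points, −6.80 to −0.577). For E669Q with DMSO it was 0.978 points (−3.27 to 5.51). Over the segments of the 4 SLFN11-line lists, long arm intervals of the wild-type SLFN11 CPT list were least often alone, at 23.8%, and MHC intervals of the wild-type SLFN11 DMSO list most often, at 67.4%, or 31 of 46.

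Merging overlapping intervals over the 6 libraries gave 1215 regions on chromosome 6 out of 17466. Of these, 216 were found in all 6 libraries, 17.8% (15.7% to 20.0%), against 12.0% of regions on other chromosomes (11.5% to 12.5%) and 12.3% of all merged regions. The share was 19.6% on the long arm, 15.7% on the short arm outside the MHC and 13.6% in the MHC. At the other end, 37.3% of chromosome 6 regions and 38.0% of other regions were found in a single library. Regions in all 4 SLFN11-line libraries and neither vector library numbered 34, 2.80%, near the 3.09% of all merged regions. The MHC had 6 of these among its 66 regions, 9.09% (3.41% to 18.7%). In lists of equal length this set made up 0.999% of chromosome 6 regions, 1.15% of others and 4.35% of MHC regions (0.531% to 14.8%), an interval that includes the share elsewhere.

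Sets that followed line or treatment in the other directions were almost empty. Both vector libraries and no SLFN11-line library shared 2 regions, 0.165% against 0.120% of all merged regions. They were chr6:15079706-15079926, with folds of 6.55 and 4.82 for DMSO and CPT, and chr6:138184516-138184700, with folds of 4.56 and 4.33. The 3 CPT libraries and no DMSO library shared 3 regions, 0.247% against 0.149%, and 2 of them lay in the MHC, at chr6:30658553-30658870 and chr6:33378455-33378708. The second of these lies right beside chr6:33377939-33378315, a region found in all 6 libraries, so it may not be a separate site. The 3 DMSO libraries and no CPT library shared 5 regions, 0.412% against 0.292%. Folds in their own lists were 4.57 to 7.03 for the CPT regions and 4.28 to 8.41 for the DMSO regions.

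Single sites were compared first where every library listed them. At chr6:11232634-11233252 on the short arm, a 619 bp region, the fold was 13.3 and 11.3 in vector with DMSO and CPT, 12.5 and 11.5 in wild-type SLFN11, and 12.4 and 9.08 in E669Q. Its summit pileups were 30, 24, 36, 21, 30 and 22 fragments in the same order. This was the region of chromosome 6 with the highest median fold among those found in all 6 libraries and wider than 150 bp. On the long arm, chr6:163148499-163149104 had folds of 12.6, 10.2, 10.8, 8.68, 9.52 and 10.3, and chr6:155635513-155636248 had a median fold of 9.90 over the libraries. In vector with DMSO its fold of 14.4, from 39 fragments, was the highest of any chromosome 6 interval.

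Other shared regions with high median folds lay at chr6:49430620-49431241 and chr6:19804804-19805358 on the short arm (10.7 and 10.2) and at chr6:164281621-164282109 and chr6:146285160-146285921 on the long arm (10.3 and 10.1). Fold enrichment is used here to rank regions within a list, since the caller computed it separately for each library. The region chr6:49304365-49304791 had summit pileups of 13 and 7 fragments in vector with DMSO and CPT, 24 and 5 in wild-type SLFN11, and 29 and 36 in E669Q. These are fragment numbers not adjusted for depth.

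MHC regions shared by every library had lower median folds, from 6.36 to 6.85 for the 5 highest, against 9.80 to 10.3 for those of the long arm. The first was chr6:33359121-33359647, 527 bp wide. It had folds of 6.86 and 5.66 in vector with DMSO and CPT, 6.43 and 8.60 in wild-type SLFN11, and 6.84 and 10.9 in E669Q. The second, chr6:33377939-33378315, had folds of 7.53, 6.53, 5.70, 7.09, 8.40 and 5.71 in the same order. Nearby, chr6:33385766-33386253 had folds of 5.83, 5.42, 6.97, 6.55, 9.64 and 10.9, and pileups of 8, 8, 17, 12, 18 and 33 fragments. For chr6:30539023-30539442 the folds were 6.55, 4.31, 6.20, 5.99, 9.41 and 9.24. The region chr6:32163251-32163977, 727 bp wide, had folds of 6.69, 5.56, 6.52, 4.80, 6.21 and 7.98. Of the folds given for these 5 regions, 2 exceeded 10, both in E669Q with CPT. The widest MHC region, chr6:31587797-31588676 at 880 bp, was listed in 5 libraries, with fold 4.89 in vector with DMSO, 6.31 to 8.78 in the SLFN11 lines and no entry in vector with CPT.

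A few sites stood out by being absent from some lists. The region chr6:133593952-133594129, 178 bp on the long arm, was missing from vector with DMSO and present in the other 5 libraries. It was the strongest interval of chromosome 6 in vector with CPT (fold 17.0, 24 fragments), in wild-type SLFN11 with CPT (14.3, 20 fragments) and in E669Q with DMSO (22.7, 40 fragments). A 113 bp interval at chr6:62284043-62284155, beside the centromere, was listed only in wild-type SLFN11 with DMSO (fold 48.1, 722 fragments) and in E669Q with CPT (fold 50.5, 781 fragments). No other interval of chromosome 6 passed 209 fragments. These 2 libraries were the deepest, at 1.72 and 2.22 times vector with DMSO, and the part of depth in this site was not tested. The widest region of the chromosome, chr6:58776285-58779422, lay on the other side of the centromere. It was 3138 bp wide and had pileups of 68 to 209 fragments in all 6 libraries at folds of 3.92 to 4.57.

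Among lost intervals of the wild-type SLFN11 line wider than 150 bp, the highest folds with DMSO were 12.8 at chr6:144384929-144385397 (34 fragments), 12.2 at chr6:51089396-51089744 (26 fragments) and 11.7 at chr6:144164085-144164727 (29 fragments). Each of these was listed in the other 5 libraries, so that wild-type SLFN11 with CPT was the single list without it. Among those gained with CPT in the E669Q line, chr6:167617508-167617693 (fold 11.3, 22 fragments) was listed in no other library. The gained intervals of the wild-type SLFN11 line wider than 150 bp had folds of at most 7.24, at chr6:22180653-22181065. Of the regions in the 4 SLFN11-line libraries alone, chr6:47277263-47277850 had the highest median fold, with 8.30 and 7.18 in wild-type SLFN11 with DMSO and CPT and 8.26 and 9.24 in E669Q.

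The local background at shared regions allows libraries to be compared over the same sites. At the 216 regions found in all 6 libraries, the median background relative to the other chromosomes was 1.13 and 1.12 in vector with DMSO and CPT, 1.14 and 1.04 in wild-type SLFN11, and 1.02 and 1.04 in E669Q. Chromosome 6 therefore stood above the rest in vector and in wild-type SLFN11 with DMSO, and close to the rest in the other 3 libraries. The 9 MHC regions stood the other way round, below the rest in the vector line and above it in 3 SLFN11-line libraries. Their median ratio was 0.771 and 0.874 in vector with DMSO and CPT, 0.970 and 1.30 in wild-type SLFN11, and 1.05 and 1.23 in E669Q. Over all MHC intervals of a list, a set that differs between libraries, the ratio was above 1 in each library. It was 1.07 and 1.10 in vector with DMSO and CPT, 1.43 and 1.65 in wild-type SLFN11, and 1.21 and 1.49 in E669Q.

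**Figure D5:**
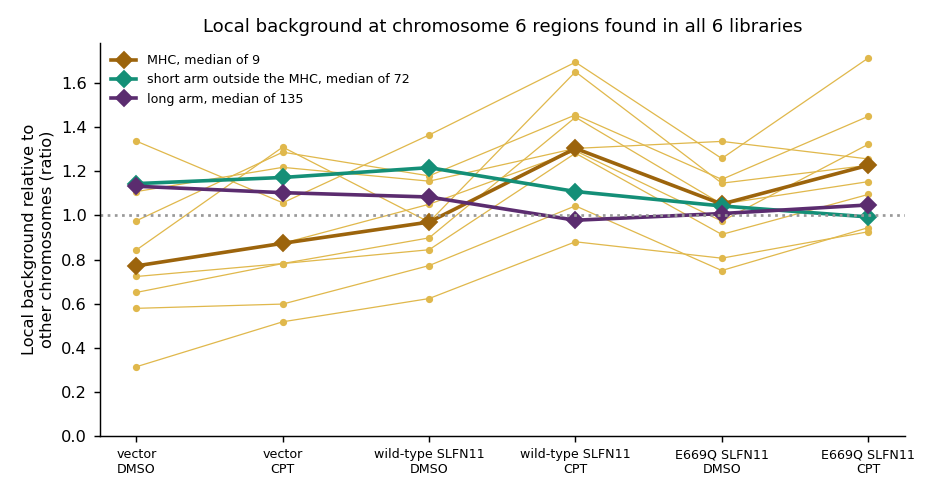
Local background relative to the median of other chromosomes (vertical axis, ratio) in each library (horizontal axis) at chromosome 6 regions found in all 6 libraries; thin lines are the 9 MHC regions and thick lines the segment medians. The MHC median goes from 0.771 in vector with DMSO to 1.30 in wild-type SLFN11 with CPT, while the long arm median lies between 0.978 and 1.13.

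On a log2 scale, the relative background of the MHC regions was above vector by a median of 0.27 in wild-type SLFN11 with DMSO (higher at 9 of 9 regions) and 0.34 in E669Q with DMSO (8 of 9). With CPT the differences were 0.68 (9 of 9) and 0.56 (8 of 9). Outside the MHC, the corresponding medians over 207 chromosome 6 regions were 0.00 (higher at 103), −0.16 (73), −0.19 (64) and −0.17 (74). CPT minus DMSO in the MHC was 0.18 in vector (8 of 9), 0.43 in wild-type SLFN11 (9 of 9) and 0.26 in E669Q (8 of 9). Outside the MHC it was −0.01, −0.18 and −0.02. Over regions found in the 2 libraries compared, a set chosen after seeing the data, 3 MHC differences had intervals of the median that include 0. These were E669Q minus vector with DMSO (0.28, −0.03 to 0.40, higher at 11 of 15) and with CPT (0.34, −0.03 to 0.51, 17 of 26), and CPT minus DMSO in E669Q (0.19, −0.02 to 0.24, 23 of 35). The wild-type SLFN11 differences from vector were 0.32 (14 of 15) for DMSO and 0.50 (20 of 20) for CPT. The intervals of the median given here take neighbouring regions of the same 2 libraries as independent. They do not cover the spread between libraries and are no test of a line or of CPT. These comparisons share libraries, and the 9 regions share each library. The local background includes fragments of nearby open sites, and may include those of the region itself. For these reasons no test was made. Of the 9 regions, 1 had another merged region within 5 kb.

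The segment boundaries fell between the following sites. On either side of the lower edge of the left-out cluster lay chr6:25279229-25279634 (5 libraries, folds of 4.95 to 7.47) and chr6:25992380-25993382 (6 libraries, 5.38 to 9.73). At its upper edge were chr6:28949835-28949984 and chr6:29093726-29093849, each in 1 library with a fold of 4.03 and 4.29. At the upper edge of the MHC were chr6:33422154-33422508 (5 libraries, 6.38 to 9.08) and chr6:33538737-33539114 (1 library, 5.95). The arm boundary fell in a gap between chr6:58776285-58779422 and chr6:61914110-61914363, so no interval crossed it.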

How the data were processed

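ATAC-seq was done on 6 libraries of K562 lines, and the groups were taken from the labels. Per the submitters' processing notes, MACS2 2.1.2, Picard 2.9.2, SAMtools 1.8, Bowtie2 2.2.6 and Trimmomatic 0.39 were used on hg19. Their roles and settings, transposase shift, duplicate handling and read numbers are not given in the sources used here. Each library has 1 deposited peak list. The authors gave each deposited entry a fold enrichment, a −log10 p-value, a −log10 q-value and a score. The fold is the pileup over the local background, with the same constant added to both. In each entry the score equals 10 times the −log10 q-value, cut to a whole number. The lowest −log10 q-value was 2.00 to 2.01.

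Distinct intervals were counted, and placed in a segment by their midpoint. Overlap means at least 1 bp. Chromosome lengths are the largest peak end in the 6 lists. Summit pileup, local background and relative depth were recovered from the deposited fold and −log10 p by MACS2's formulas, which matched 98.9% to 99.4% of entries to within 0.001 in −log10 p. Confidence intervals are Clopper-Pearson for shares, Newcombe for differences between shares and exact conditional for ratios. For medians of background differences they are binomial intervals from the ranked regions, with regions taken as independent. Functions were tested on simulated data. Python 3.11.15, numpy 2.4.6, pandas 2.3.3 and scipy 1.17.1 were used, and protein-coding genes per chromosome came from RefSeq on GRCh38 without coordinates.

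Alternatives were stricter q-value, fold and width limits, lists of equal length, every summit counted, other boundaries, lengths and overlap rules, and the cluster kept in. The members, bins, boundaries and comparisons were chosen with earlier results of these data known. The following named regions are wider than 150 bp. They are the 5 of each segment with the highest median fold among those in all 6 libraries, and the widest of each segment. They are also the 3 gained and 3 lost per line with the highest fold, and the 5 highest of each line-specific set. The strongest interval per library and those nearest each boundary were named at any width. The sets following treatment and the division into 5 strength parts were added after the values were seen. Not all of these regions are printed. The planned gene lists were not analysed here, as regions were given no gene names.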

Additional observations from a re-analysis of the deposited data

Results flagged for a closer look

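With 1 library per group, the lines can differ only in the direction of CPT minus DMSO, and none of these differences between lines was tested. The number of chromosome 6 intervals with CPT was 1.06 times that with DMSO in the vector line, 0.480 times in the wild-type SLFN11 line and 1.54 times in the E669Q line. The chromosome 6 share moved by −0.367, 0.0346 and 0.316 points in the same order of lines, with all counting intervals including 0. The short arm share of members moved by 1.54, −0.0331 and −1.13 points, and the MHC share by 2.24, 1.68 and −1.15 points, again with intervals that include 0. Depth also went in opposite directions, and its part was not tested.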

How the results depend on the processing

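There were 12 alternative settings, each applied to the values it bears on. The density ratio of chromosome 6, the quantity the chromosome was chosen by, ranged from 1.20 to 1.95. The short to long arm ratio lay above 1 in 48 of 48 library and setting combinations, with 46 intervals that exclude 1. The SLFN11 minus vector share lay below 0 in 24 of 24 comparison and setting combinations, with 20 intervals that exclude 0. All settings reuse the same lists, so these counts are not repeated support. Of 211 alternative values, 180 stayed within the interval of the reported value or, for a tested mean, on its side of 0. The cause of the other shifts was not tested.

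With a −log10 q-value of at least 5, the density ratio was 1.95 and 1.83 in vector with DMSO and CPT, 1.51 and 1.65 in wild-type SLFN11, and 1.42 in E669Q with DMSO. The short to long arm ratio was 1.07 and 1.10 in vector with DMSO and CPT and 1.25 in E669Q with CPT. The MHC share in vector with CPT was 3.90%, the E669Q minus vector share with CPT −2.35 points, and DMSO members found again with CPT 64.1% in vector and 34.7% in wild-type SLFN11. With a fold of at least 5, the density ratio in wild-type SLFN11 with CPT was 1.56. With the left-out cluster kept in, it was 1.50 in wild-type SLFN11 with DMSO.

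In lists of equal length the density ratio was 1.59 in wild-type SLFN11 and 1.40 in E669Q, both with DMSO. CPT minus DMSO of the share was −0.820 in wild-type SLFN11, and wild-type SLFN11 minus vector with DMSO −0.477. DMSO members found again were 64.5% in wild-type SLFN11 and 68.6% in E669Q. Regions in all 6 libraries were 12.8% of those on other chromosomes, and regions in the SLFN11-line libraries alone 0.999% on chromosome 6 and 1.15% elsewhere. With an overlap of at least 50% of the shorter interval, 79.2% of E669Q DMSO members were found again.

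The mean CPT minus DMSO over the lines changed sign for the short arm share with the q-value (−1.07) and fold (−1.06) thresholds, intervals wider than 150 bp (−0.606) and every summit counted (−0.465), and for the chromosome 6 share with the wider intervals (0.00147). Equal-length lists for merged regions, and regions found in the 2 libraries compared, were chosen after seeing the data. With the second, background outside the MHC was −0.26 in wild-type SLFN11 minus vector with CPT and 0.073 in CPT minus DMSO of vector, and the MHC value of E669Q minus vector with CPT was 0.34. No paired analysis was possible beyond the pairing of CPT and DMSO within a line, because each group has 1 library.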
